A study of Mus musculus with 10 samples.

Results

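Odorant receptors are the G protein-coupled receptors through which the nose detects smells, and each mature olfactory sensory neuron transcribes a single allele of a single receptor gene. The receptors form the largest gene family of the mouse. Class II receptors, the group typical of land animals, are spread over many chromosomes in clusters of neighbouring genes, and the clusters of chromosome 2 are among the largest. The level of a receptor's RNA in whole olfactory epithelium depends both on how many neurons chose that receptor and on how much RNA each of them holds, and these cannot be told apart in bulk samples.

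The receptors described here are the rows of the authors' deposited table named Olfr and numbered from Olfr987 to Olfr1318, without the suffix that marks pseudogenes, and with a mean above 0. The table holds 242 rows in that range, of which 239 met the rule, out of 20879 genes with a mean above 0. All 239 lie on chromosome 2 in the RefSeq annotation of GRCm38.p6, which names 238 of them protein coding and 1, Olfr1010, a transcribed pseudogene. The rule used only the mean, so the levels are a description, and the comparison between genotypes played no part in it. The members just inside the rule were Olfr1145, with a mean of 0.101, Olfr1248 with 0.184 and Olfr1053 with 0.290 normalized counts in the authors' deposited table, and those at 0 were Olfr1061, Olfr1128 and Olfr1282.

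Poly(A) RNA of olfactory epithelium was sequenced from untreated C57BL/6 mice at 6 months of age. The genotype label is Apoe3 for 4 mice and Apoe4 for 6, the human alleles of apolipoprotein E that the series title names. The sources used here do not state how the alleles were introduced or the sex of the animals. Their deposited results, called the authors' deposited table below, give 1 row of DESeq2 results per gene over all 10 libraries: the mean normalized count (reads divided by a size factor of the library), the log2 fold change with its standard error, and p-values. Values per library were not analysed here, so no value below can be shown animal by animal.

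A positive fold is read as higher in Apoe4. The table does not name its direction. Genes with a single read in 1 library took 10 levels of the mean, 6 with positive and 4 with negative folds, which matches 6 Apoe4 and 4 Apoe3 libraries. The same levels gave size factors from 0.859 to 1.16, or about 14900000 to 20100000 assigned reads per library. The authors' folds were shrunk towards 0 by their model, which makes the folds of low genes too small, and no standard error in the table goes past a ceiling. Shrinkage was therefore also undone approximately, using how far each standard error stands below the ceiling. The calculation has a pair of solutions for each gene, and both are given wherever an unshrunken value is printed. The gap between the solutions is not a standard error, and none is given for unshrunken values.

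The labelled tissue carried its defining markers. Omp, a protein abundant in mature olfactory neurons, had a mean of 113676 normalized counts in the authors' deposited table. The 20 listed markers of mature olfactory sensory neurons ran from 583 upwards and the 14 of sustentacular (supporting) cells from 675 upwards in the authors' deposited table.

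The receptors fell into 2 blocks separated by 20.9 Mb of other genes. The proximal block (GRCm38 chromosome 2, 85330967 to 90282573) held 204 of them from Olfr987 to Olfr1272 over 4.95 Mb, and the distal block (111230853 to 112157007) held 35 from Olfr1275 to Olfr1318 over 0.926 Mb. Nearly all are short coding units in the GENCODE M21 models of that build: 236 had a complete coding sequence, for proteins of 303 to 346 residues with a median of 312. Of the 237 with an exon model, 214 had more than 1 exon, since the noncoding start of a receptor transcript is often spliced to an exon that holds the whole coding sequence.

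All 4 receptors that differed between the genotypes, and the neighbour of one of them, carried the stretch of coding sequence by which the family is recognised, at the inner end of the third membrane segment. It encodes the aspartate-arginine-tyrosine motif that couples these receptors to G proteins, and a search of translated coding sequences for methionine, any 2 residues and that motif found it in 208 of 236 members (864 of 1095 receptor genes of the annotation). The stretches below, 48 bases each, show how alike the 5 are at this motif. They run 5′ to 3′ on the coding strand and come from GENCODE M21 transcripts, with capitals for the 30 bases that all 5 share.
Olfr1295 (chr2:111565044-111565091, minus strand): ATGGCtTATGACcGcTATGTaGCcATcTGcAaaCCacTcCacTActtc
Olfr1294 (chr2:111537889-111537936, minus strand): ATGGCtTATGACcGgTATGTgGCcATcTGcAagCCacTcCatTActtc
Olfr1281 (chr2:111328772-111328819, plus strand): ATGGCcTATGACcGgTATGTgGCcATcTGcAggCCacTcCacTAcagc
Olfr1112 (chr2:87192061-87192108, plus strand): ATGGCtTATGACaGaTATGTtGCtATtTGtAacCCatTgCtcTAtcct
Olfr1257 (chr2:89881173-89881220, plus strand): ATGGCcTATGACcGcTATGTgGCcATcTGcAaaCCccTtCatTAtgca

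Outside this stretch the 5 are less alike. Over whole coding sequences, Olfr1295 and Olfr1294 were 87.5% identical, Olfr1295 and Olfr1281 67.6%, and Olfr1112 and Olfr1257 55.7%. None of the 5 shared a run of 150 bases, the length of 1 read, with a transcript of another gene. Among the 237 receptors with a GENCODE transcript, 73 shared at least 1 such run, and in 3 of them (Olfr1028, Olfr1248 and Olfr1316) the shared runs made up more than 10% of all, with a maximum of 12.9% in Olfr1316. The median receptor was 84.9% identical in protein sequence to its closest relative among all receptors, and 42 were at least 95% identical to one. How the authors' counting shared out reads between such pairs is not known.

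Single receptors were low transcripts. The 239 had a median mean of 29.9 normalized counts in the authors' deposited table, and together they made up 0.0627% of all counts. They held 21.2% of the counts of all receptor genes and 22.3% of those genes, so they were neither rich nor poor in reads for their number. A total of 189 of the receptors (79.1%) reached a mean of 10, against 75.1% of the other 831 receptors, whose median mean was 27.1, in the authors' deposited table. The levels formed a gradual slope rather than a few dominant genes: 28 receptors had a mean of at least 100, 15 were under 1, and the 10 highest held 21.0% of the sum.

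**Figure D1:**
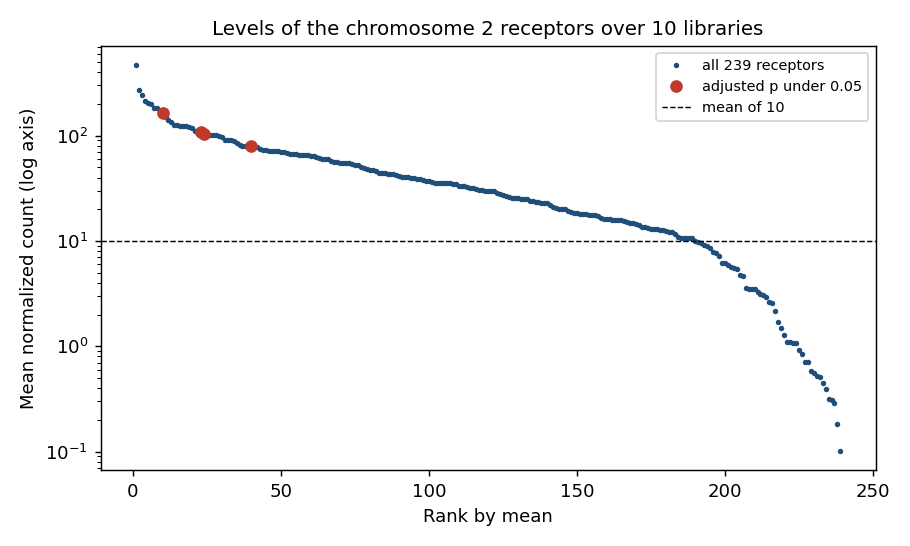
Mean normalized count over 10 libraries (log axis) of each of the 239 chromosome 2 receptors against its rank, with the 4 that differed between the genotypes in red and a dashed line at a mean of 10. The slope is even down to a mean of about 10, which 189 receptors reach, and the 4 in red lie between 79.4 and 162.

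The highest receptor by mean was Olfr1301 of the distal block, with 466 normalized counts in the authors' deposited table. Next came Olfr1033 with 272, Olfr1261 with 242 and Olfr1228 with 211 in the authors' deposited table, then Olfr1294 with 203 and Olfr1262 with 199. Per kilobase of the longest transcript, which allows levels of different genes to be compared, Olfr1294 led with 103 normalized counts and Olfr1301 followed with 96.6, against a median of 8.70. Olfr1195, Olfr1110, Olfr1264 and Olfr1257 completed the 10 highest, between 183 and 162 in the authors' deposited table. Of these 10, 6 had a negative and 4 a positive fold, and only Olfr1257 passed the test between genotypes.

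The comparison of Apoe4 with Apoe3 asks which receptors differ in RNA level between mice of the 2 genotypes. Olfr1295 rose in Apoe4, and Olfr1281, Olfr1112 and Olfr1257 fell. Each encodes an odorant receptor. These were 4 of the 188 receptors tested (2.13%) at an adjusted p under 0.05, beside 0.779% of all 16050 genes tested and 2.08% of the other 624 receptors tested (13 genes). Of all genes tested 0.324% were higher and 0.455% lower. The share of the 188 receptors thus lay above that of all genes and at that of the other receptors. The difference between these shares was not tested. The other 624 include 31 receptors of chromosome 2 that the rule on numbers left out.

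Olfr1295 (chromosome 2, 111564504 to 111565442, minus strand, coding sequence in 1 exon) had a mean of 79.4 normalized counts in the authors' deposited table. Its log2 fold change there was 0.64 ± 0.11 (SE; adjusted p = 8.9e-07). That is a 1.55-fold rise on the shrunken scale of the authors' deposited table. Undoing the shrinkage gave a log2 fold change of 1.26 to 1.28, or 2.40- to 2.43-fold. The level this implies is 42.7 to 43.1 normalized counts in Apoe3 and 104 in Apoe4. The spread between libraries that its standard error implies was a coefficient of variation of 22.5 to 22.8%, of which counting alone would give 11.2%. This and the implied spreads below are values of the authors' model, not spreads measured over libraries.

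Olfr1281 (111328421 to 111329338, plus strand) had a mean of 108 and a log2 fold change of -0.51 ± 0.11 (SE; adjusted p = 4.4e-04) in the authors' deposited table. The approximate unshrunken folds were 0.501 and 0.485, for an implied level of 155 to 157 normalized counts in Apoe3 and 76.1 to 77.5 in Apoe4. Its closest relative, Olfr1282, is 92.5% identical in protein sequence and is listed at 0 in the authors' deposited table. RefSeq draws the gene body of Olfr1280 across Olfr1281 and Olfr1283 on the same strand, while the GENCODE models of these genes do not overlap. The sources used here do not name the annotation that the authors counted on.

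Olfr1112 (87191689 to 87192645, plus strand) had a mean of 104 and a log2 fold change of -0.45 ± 0.10 (SE; adjusted p = 0.00331) in the authors' deposited table. The pair of solutions for its unshrunken log2 fold change lay further apart, at -0.73 and -1.17. Olfr1257 (89880828 to 89881757, plus strand) had a mean of 162 and a log2 fold change of -0.40 ± 0.11 (SE; adjusted p = 0.0208) by the authors' deposited table, and -0.79 to -0.82 unshrunken. Its implied level was 217 to 220 normalized counts in Apoe3 and 124 to 126 in Apoe4. The implied coefficients of variation between libraries were 17.9 or 28.7% for Olfr1112 and 22.2 to 23.1% for Olfr1257, where counting alone would give 9.79 and 7.85%.

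The 4 calls rest on testing against no difference at all. With a fold of 1.2 as the null value of the shrunken folds, none of the 188 receptors passed, and 22 of all genes did. Shrinkage makes the folds of low genes too small, so this cannot decide whether unshrunken folds exceed 1.2. Unshrunken folds were not tested. Sex-linked genes also differed between the groups. Each of 4 tested genes of the Y chromosome fell in Apoe4, from -3.72 to -2.80 on the log2 scale. Xist stood at 6.41, without a p-value, in the authors' deposited table. How fully sex divided the groups cannot be shown without values per library. Sex and genotype cannot be told apart for any receptor named here.

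Flanks were taken only among tested receptors that met the rule on numbers. A receptor with another number inside the blocks can therefore lie nearer than the flank named. Receptors of that kind had folds of both signs and none passed. The smallest p among them was that of Olfr48, at -0.31 (adjusted p = 0.144). None of the flanks passed the test, and the 1 of them with an adjusted p under 0.10 had the opposite sign to its changed neighbour. Olfr1294, 26.2 kb from Olfr1295 and its closest relative, had a log2 fold change of -0.34 ± 0.10 (SE) in the authors' deposited table, opposite in sign, and missed the threshold (adjusted p = 0.0633). On the other side Olfr1297 stood at 0.03, per the authors' deposited table (adjusted p = 0.955). Beside Olfr1281, Olfr1280 was at -0.05 and Olfr1283 at 0.04, per the authors' deposited table (adjusted p = 0.910 and 0.913). Beside Olfr1257, Olfr1256 was at 0.05 and Olfr1258 at 0.08, per the authors' deposited table (adjusted p = 0.899 and 0.848). Olfr1112 was flanked by Olfr1111 at 0.09 and by Olfr1115 at -0.26, per the authors' deposited table (adjusted p = 0.816 and 0.141). Over all 187 pairs of successive tested receptors of the rule, the folds had a Spearman rho of 0.104, a description across genes of the same libraries.

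**Figure D2:**
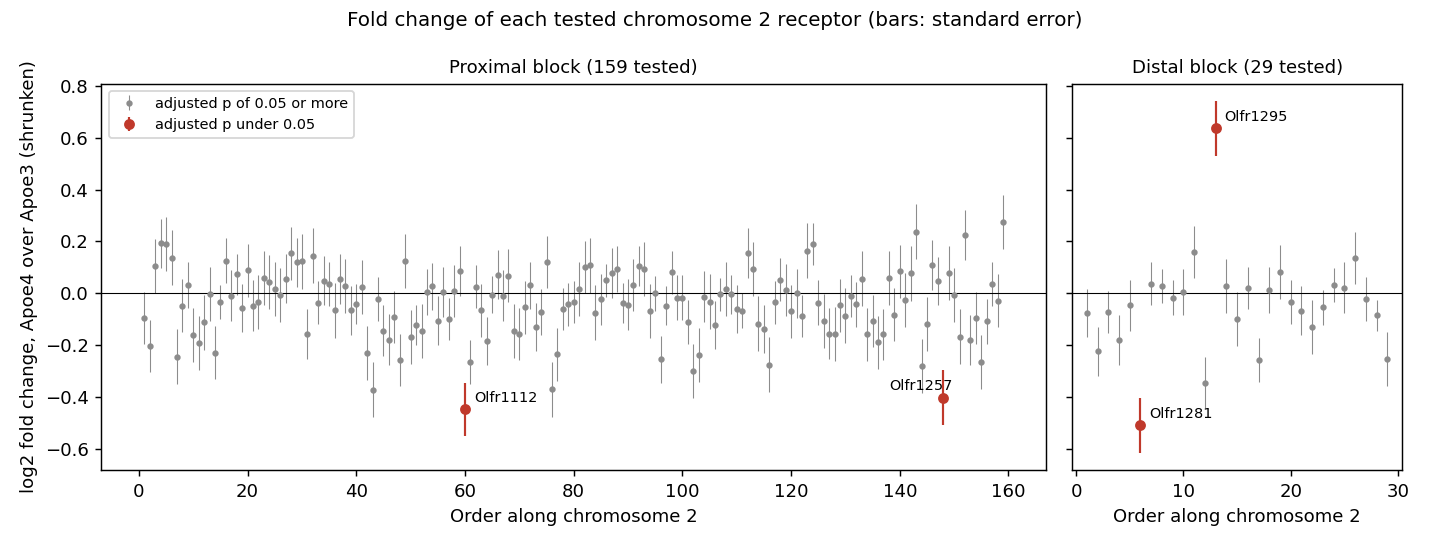
Shrunken log2 fold change of each tested receptor (points, bars are standard errors) in order along chromosome 2, for the 159 tested receptors of the proximal block and the 29 of the distal block. Red points passed the test: Olfr1112 and Olfr1257 in the proximal block, Olfr1281 and Olfr1295 in the distal block. Each has a plotted neighbour near 0 on at least 1 side. Receptors with numbers outside the rule are not plotted.

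The blocks had like medians. The tested receptors of the proximal block stood at a median of -0.03 (log2) and 2 of 159 were lower; those of the distal block had a median of -0.03 with 1 of 29 higher and 1 lower, all from the authors' deposited table. The 107 tested genes between the blocks had a median of 0.01 and 1 call in the authors' deposited table.

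Receptors can also be grouped by sequence, using the MOR names that RefSeq lists as synonyms, in which the first number stands for a subfamily. A MOR name was found for 233 of the 239, in 48 subfamilies, and the 4 changed receptors belong to 3 of them. Olfr1295 (MOR248-10) and Olfr1281 (MOR248-14P) share the MOR248 subfamily with Olfr1294 (MOR248-7). That subfamily was singled out after its values were seen, so its counts support nothing.

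MOR248 had 14 members, all in the distal block, and 12 were tested. Both receptors with the highest levels per kilobase, Olfr1294 and Olfr1301, belong to it. Its members differed in sign: Olfr1295 was higher and Olfr1281 lower, while Olfr1294 at -0.34 and Olfr1302 at -0.26 in the authors' deposited table did not pass (adjusted p = 0.0633 and 0.171). The other 8 tested members lay between -0.10 and 0.16 in the authors' deposited table. Olfr1301, the most abundant, stood at 0.02 ± 0.08 (SE), per the authors' deposited table (adjusted p = 0.957). Among the 91 pairs of MOR248 members the coding sequences were 66.5 to 96.7% identical, with a median of 69.6%. Olfr1298 was not tested, with a mean of 8.86 in the authors' deposited table, nor was Olfr1287, with 0.582.

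**Figure D3:**
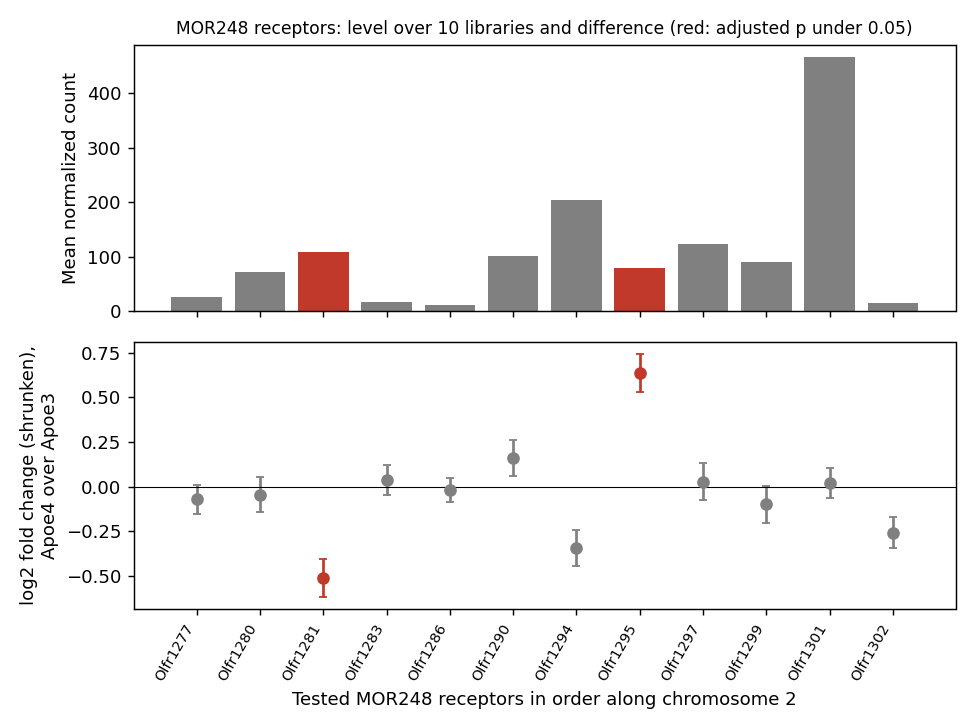
The 12 tested MOR248 receptors in order along chromosome 2: mean normalized count over 10 libraries (top, bars) and shrunken log2 fold change with its standard error (bottom, points), red where the adjusted p is under 0.05. Olfr1294 and Olfr1295 stand side by side at -0.34 and 0.64, and Olfr1301, with the highest bar, is at 0.02.

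Olfr1112 (MOR264-6) was 1 of 13 tested MOR264 receptors, which had a median of -0.06 with 10 negative folds in the authors' deposited table. A further 2 members of that subfamily had an unadjusted p under 0.05, Olfr1115 at -0.26 and Olfr1120 at -0.18, per the authors' deposited table (adjusted p = 0.141 and 0.472). Olfr1257 (MOR232-1) was 1 of 6 tested MOR232 receptors. Its closest relative Olfr1258, 84.2% identical in protein sequence, was at 0.08, and Olfr1260 at -0.17, per the authors' deposited table (adjusted p = 0.848 and 0.596). The seventh MOR232 receptor, Olfr1204, had a mean of 14.1 and a fold of -0.19 but no p-value in the authors' deposited table. MOR174 had 7 of 10 tested members at positive folds and a median of 0.06 in the authors' deposited table, with no call and 0 members at an unadjusted p under 0.05.

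Beyond the 4 calls, small negative folds were common. The 188 tested receptors had a median log2 fold change of -0.03 in the authors' deposited table, where that of all genes tested was 0.00 and that of the other receptors -0.02. Negative folds made up 61.7% of the 188 (116 receptors), 56.4% of the other receptors and 48.9% of all genes. An unadjusted p under 0.05 was reached by 29 of the 188 (15.4%), of which 23 were lower and 6 higher. Of all genes tested 10.3% reached it, 5.76% lower and 4.54% higher, and of the other receptors 12.2%. Receptors of chromosome 7 reached it in 5.59% and had a median of 0.00, and those of chromosome 11 in 12.3% with a median of -0.05. Those of chromosome 9 reached it in 10.3%, with a median of -0.004. The 31 tested receptors of chromosome 2 that the rule left out reached it in 16.1%. Their median was 0.004, with 48.4% negative folds and 0 calls, so the lean to negative folds was not seen in all receptors of chromosome 2. No test compared these shares.

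On the shrunken scale, markers of the cells that carry the receptors had a like median. Unshrunken, the receptors had a median of -0.08 or -0.12 by the pair of solutions. Shrinkage makes the folds of low genes too small, and the markers have higher means than the receptors. The likeness and the centring below therefore hold for shrunken folds only. The 20 mature neuron markers had a median of -0.03 in the authors' deposited table; none passed and 1 had an unadjusted p under 0.05. With every fold centred on that median, negative folds made up 51.1% of the 188 receptors, and 19 lower and 7 higher receptors had an unadjusted p under 0.05. The same 4 receptors passed the adjusted test then, Olfr1257 narrowly (adjusted p = 0.0493). Among all genes the share of lower genes at an unadjusted p under 0.05 moved from 55.9 to 25.8% with this centring, and among the other receptors from 75 to 55.7%.

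The 25 receptors with an unadjusted p under 0.05 that missed the adjusted threshold were 20 lower and 5 higher. The nearest to it were Olfr1080 at -0.37 (adjusted p = 0.0505), Olfr1140 at -0.37 (adjusted p = 0.0527) and Olfr1294 in the authors' deposited table. Olfr1080 is 97.1% identical in protein sequence to Olfr1082, with which it shares 3.56% of its runs of 150 bases, so its counts are less certain. The gene body of Olfr1140 overlaps the pseudogene Olfr1139-ps1 in GENCODE, but Olfr1140 shares no such run with another gene. Whether that overlap affected its counts was not tested. Then came Olfr1115 and Olfr1302, with means of only 13.0 and 15.7 in the authors' deposited table. Olfr1193 at -0.30, Olfr1180 at -0.26 and Olfr1253 at -0.28 in the authors' deposited table followed (adjusted p = 0.201, 0.233 and 0.261). After Olfr1295 the highest folds were those of Olfr1271 at 0.28 and Olfr1252 at 0.24, per the authors' deposited table (adjusted p = 0.286 and 0.406).

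Small p-values were more frequent among abundant receptors than among rare ones. Of the 47 tested receptors with the highest means (72.1 to 466 normalized counts), 13 (27.7%) had an unadjusted p under 0.05, 10 of them lower. All 4 calls were in that range. The other receptors of that range reached 22.5% (32 of 142) and genes that are no receptor 10.1% (508 of 5013). In the lowest of 4 equal groups (10.6 to 21.6) the chromosome 2 receptors reached 10.6%, the other receptors 7.95% and the remaining genes 6.69%. The median absolute log2 fold change in the highest range was 0.12 for the chromosome 2 receptors and 0.11 for the other receptors, against 0.07 for genes that are no receptor, in the authors' deposited table. The ranges were chosen after the means were seen, and the differences between these shares were not tested.

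**Figure D4:**
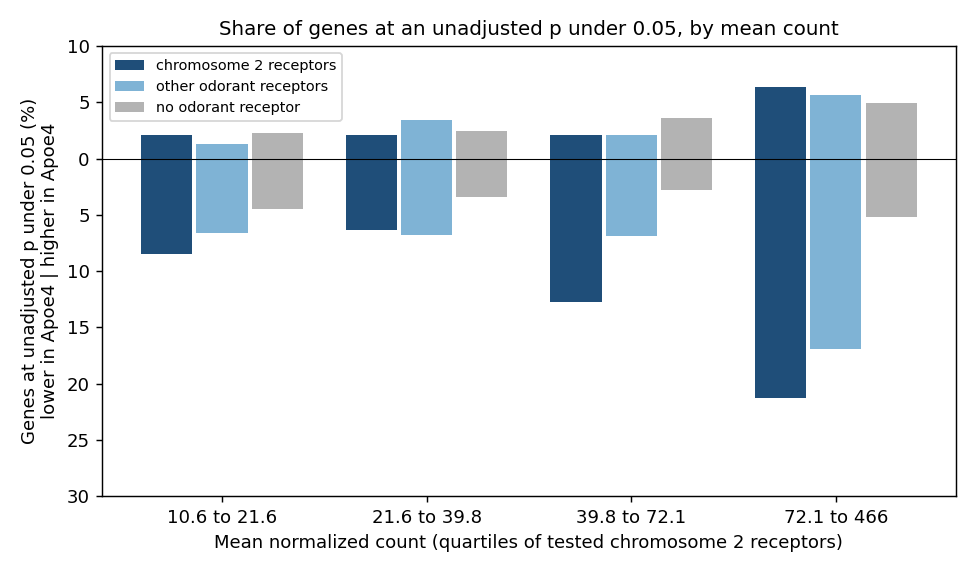
Percent of genes with an unadjusted p under 0.05 (upwards higher in Apoe4, downwards lower) in 4 ranges of the mean normalized count, each with 47 of the tested chromosome 2 receptors, for those receptors, the other odorant receptors and genes that are no odorant receptor. The downward bars of both receptor groups are longest in the highest range, at 21.3% and 16.9%, where the other genes stand at 5.21%.

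**Figure D5:**
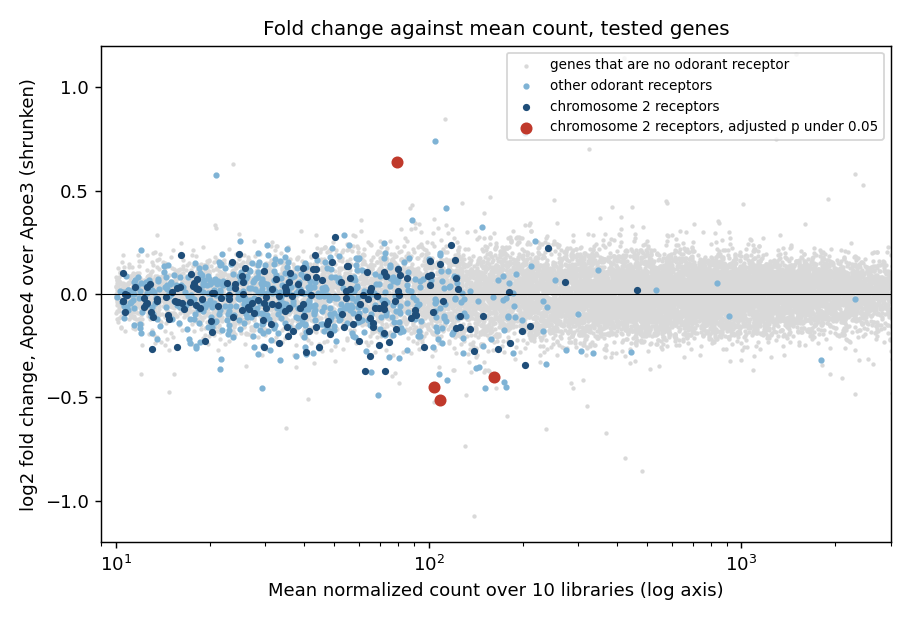
Shrunken log2 fold change against mean normalized count (log axis) of tested genes: genes that are no odorant receptor in grey, other odorant receptors in light blue, chromosome 2 receptors in dark blue, and the 4 that passed in red. The plot leaves out 1056 tested genes outside its axes. The red points lie beside other receptors of like size and sign.

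A single textbook receptor was followed by name. Olfr1019, which responds to a component of fox odour that makes mice freeze, had a mean of 80.3 normalized counts and a log2 fold change of 0.00 ± 0.11 (SE), per the authors' deposited table (adjusted p = 0.997). On the shrunken scale this bounds the change only loosely. A smaller standard error need not mean a tighter bound among these shrunken values: Olfr1145, with a mean of 0.101, has one of 0.011.

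No listed gene of receptor choice, trafficking or signalling passed the test. Among all 16050 genes tested 0.779% passed and 10.3% had an unadjusted p under 0.05. The absence of calls therefore says little in lists of this size. Of 29 factors of receptor choice and trafficking, which include the transcription factors that bind receptor enhancers and the chaperones that bring receptors to the cilia, none passed and 2 had an unadjusted p under 0.05, with a median of 0.02 in the authors' deposited table. The smallest p belonged to Ddit3, a stress-induced transcription factor, at -0.20, and Bcl11b, a zinc finger factor tied to receptor class, at 0.18, per the authors' deposited table (adjusted p = 0.359 and 0.482). Lhx2 and Ldb1, which hold the enhancers of receptor genes together, stood at -0.05 and 0.02, and the receptor transporters Rtp1 and Rtp2 both at 0.01, per the authors' deposited table (adjusted p from 0.870 to 0.988).

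In the signalling cascade downstream of the receptors none of 21 tested genes passed, and 2 had an unadjusted p under 0.05. These were Adrbk2, a receptor kinase, at 0.15 and Slc24a4, the exchanger that ends the response, at 0.14, per the authors' deposited table (adjusted p = 0.425 and 0.469). Gnal, the G protein of the cascade, was at 0.02, Adcy3, its cyclase, at -0.01, Cnga2, a subunit of the cyclic nucleotide-gated channel, at -0.04 and Omp at -0.06, per the authors' deposited table (adjusted p from 0.828 to 0.987). Among mature neuron markers the smallest p were those of Stoml3 at -0.13 and Slc17a6 at 0.12, per the authors' deposited table (adjusted p = 0.431 and 0.538).

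Lists of other cells moved in part. Of the erythroid markers reported here 3 of 3 tested were lower: Alas2 at -0.46, Slc4a1 at -0.27 and Car1 at -0.25, per the authors' deposited table (adjusted p from 0.00337 to 0.0171), with means from 14.4 to 164. The erythroid genes Hba-a1, Hba-a2, Hbb-bt and Hbb-bs had a mean of 0 in the authors' deposited table and were not tested. Of 14 sustentacular markers 2 were lower, Aldh1a7 at -0.27 and Cbr2 at -0.26, per the authors' deposited table (adjusted p = 0.00172 and 0.0421). The sustentacular list had 11 of 14 negative folds, a median of -0.09 in the authors' deposited table and 6 markers at an unadjusted p under 0.05. Of 12 immature neuron markers 1 was higher, Dpysl3 at 0.24, per the authors' deposited table (adjusted p = 0.0272), and Dpysl5 at 0.14 had the next smallest p (adjusted p = 0.508). That list had 9 positive folds, a median of 0.06 in the authors' deposited table and 1 marker at an unadjusted p under 0.05. None of 11 globose basal, 7 horizontal basal, 8 respiratory ciliated and 10 macrophage markers passed, and the unadjusted p was under 0.05 for 0, 0, 1 and 1 of them. Their smallest p were those of Mki67 at -0.13 and Top2a at 0.09, Krt5 at 0.14 and Krt15 at -0.10, Rsph1 at 0.17 and Dnah5 at 0.14, and Aif1 at -0.22 and C1qb at -0.15, per the authors' deposited table (adjusted p from 0.431 to 0.772). The part of these differences in the receptor results was not tested.

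Transcript length, with which the test statistic rose across all genes (Spearman rho = 0.414 over 15503 genes), had a rho of 0.0402 with it over the 186 tested chromosome 2 receptors that have a length. With the length trend of all genes subtracted, the same 4 receptors passed. Olfr1112 and Olfr1257 did so narrowly (adjusted p = 0.0483 and 0.0444).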

How the data were processed

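Reads were aligned with STAR, counted with featureCounts and compared with DESeq2 on GRCm38, per the submitters' processing notes. The sources used here name no version, setting, strandedness or annotation. The deposit analysed is 1 table. Its mean is a signal, normalized counts averaged over all libraries by the authors. The authors' log2 fold changes and standard errors are shrunken. The deposited score is the Wald statistic, equal to fold over error within 1.3e-13, and each deposited p-value is its two-sided normal p. The deposited adjusted p-values equal Benjamini-Hochberg values over 16050 genes with means above 10. The planned count test needed values per library, so the authors' own test, which the plan named for that case, was used at an adjusted p under 0.05. P-values measure the spread between the animals of these groups.

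The receptors, gene lists and tests were chosen with earlier results of these data known. A marker of the erythroid list is not reported here. Named receptors are those past the threshold and their tested flanks, the next 8 by p, and Olfr1019. The 10 highest and 3 lowest means and the 3 highest and 3 lowest folds were also named. Of each list, those past the threshold and the 2 with the smallest p were named, as was Omp. Lhx2, Ldb1, Rtp1, Rtp2, Gnal, Adcy3, Cnga2 and Xist were named outside these rules. MOR174, MOR232 and MOR264 members, Olfr1282, Olfr1287, Olfr1298, Olfr1204 and Olfr48, and the erythroid genes with a mean of 0, were named after their values were seen. Positions and synonyms came from RefSeq (GRCm38.p6), and transcripts from GENCODE M21, found for 96.6% of tested genes. Shared runs of 150 bases were exact matches on either strand. Protein identity came from global alignments (biopython 1.88, BLOSUM62) with the closest of 5 candidates per receptor. Length trends were lowess curves (fraction 0.3, statsmodels 0.14.6). The code was tested on simulated counts.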

Additional observations from a re-analysis of the deposited data

How the results depend on the processing

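At a fold of 1.2 in place of 1, set against the shrunken folds, 0 receptors changed (0 higher, 0 lower) and 22 of all genes. At a fold of 1 it was 4 receptors (1 higher, 3 lower) and 125 genes. At an adjusted p under 0.10, 7 receptors passed, 6 of them lower; with folds centred on the median of all tested genes (0.0026), 5 lower receptors passed. Under each of these settings but the fold of 1.2 the same 4 receptors passed, at an adjusted p under 0.10 by definition. They also passed with no filter on the mean, a mean of at least 20 or no X and Y genes. These settings only re-adjusted the same p-values, and leaving out X and Y genes does not remove the sex difference between the groups. They passed too with the length trend removed or folds centred on mature neurons. Olfr1112 (adjusted p = 0.0483) and Olfr1257 (0.0444) passed narrowly with the length trend removed, as did Olfr1257 (0.0493) with folds centred on mature neurons. The adjusted p of Olfr1295 at a fold of 1.2 was 0.122, and its range over the other settings began at 1.6e-07. Olfr1080 also passed with a mean of at least 20 (adjusted p = 0.0494) and with folds centred on all tested genes (0.0461), where Olfr1140 passed too (0.0481); at an adjusted p under 0.10 both passed, with Olfr1294. The median fold of the receptors stayed between -0.12 and 0.00 in every setting run, which included 252 receptors chosen by position and leaving out those with a near-identical copy. No paired analysis was possible because the table holds no values per library; for the same reason leaving out each replicate and other normalizations were not run. Depth limits the receptors with means under 10, of which 50 were not tested.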
